A study of Mus musculus with 2 samples.

Results

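The cells described here are T cells that carried transcripts of natural killer (NK) receptors and of neither the CD8 beta chain nor CD4. A cell was taken if it had at least 1 UMI (unique molecular identifier, a count of 1 captured RNA molecule) of Cd3e, a subunit of the T cell receptor complex. It had to have 0 UMIs of Cd8b1, Cd4, Foxp3, Trdc and C1qa, and at least 1 UMI of 2 or more of the receptor genes Klrb1c, Klra1, Klra6, Klra7 and Klra9. Of 17390 cells, 366 met this rule, 242 of 9312 in the untreated library and 124 of 8078 in the treated library. They are called NK-receptor T cells below.

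The cells, labelled T cells, came from NILER, a mouse melanoma model with mutated Nras that was made from the syngeneic line NIL and exposed to ultraviolet light. Both libraries were taken on day 5 and made with a droplet 3′ kit, version v3. The untreated library had no treatment, and the treated library had trametinib, an inhibitor of the kinase MEK, together with BGB-283, a RAF inhibitor. The labels give neither the number of animals behind a library nor how the cells were sorted. Each group is 1 library, so no test between groups was possible, and treatment, animal and batch cannot be told apart. All intervals are exact 95% intervals for counting error only.

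Ly49 receptors, encoded by the Klra genes, are lectin-like proteins that bind MHC class I molecules and are best known from mouse NK cells, where most members inhibit and a few activate. NK1.1, encoded by Klrb1c, is an activating receptor that marks NK cells and some T cells in certain mouse strains. Innate-like T cells are T cells that share such receptors and quick effector responses with innate lymphocytes. They include invariant NKT cells, which depend on the transcription factor PLZF (Zbtb16), and CD8 alpha alpha cells, which carry a homodimer of the CD8 alpha chain in place of the alpha and beta pair of conventional CD8 T cells.

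NK-receptor T cells made up 2.60% of the untreated library (interval 2.29 to 2.94) and 1.54% of the treated library (1.28 to 1.83). Among cells with Cd3e they were 3.10% of 7812 and 1.84% of 6728. The share was lower in the treated library on both denominators. Among Cd3e-positive cells that met the 5 exclusions, the shares lay closer together, at 18.6% of 1300 cells (16.5 to 20.8) and 16.1% of 771 cells (13.6 to 18.9). These shares follow from the rule and from depth, since a gene is more easily missed in a shallow cell. Median depth was 5921.5 UMIs (range 1086 to 45740) in untreated members and 5378.5 (1211 to 18319) in treated members. The class summed to 1709335 and 704448 UMIs. Levels are given below as UMIs per 1000000 UMIs of the class (CPM), first in the untreated and then in the treated library. No cell barcode of a member was shared by the 2 libraries, which shared 35 barcodes in all.

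The reference was conventional CD8 cells, with UMIs of both Cd3e and Cd8b1, 4829 untreated and 4967 treated cells with median depths of 7518 and 6685 UMIs. Of these, 16.9% and 4.89% also had a UMI of C1qa, a macrophage gene that the members lack by the rule. A matched reference of CD8 cells that met the exclusions of Cd4, Foxp3, Trdc and C1qa was therefore set beside it (3558 and 4487 cells). Levels given below for CD8 cells without the word matched are those of all CD8 cells, including those with C1qa. NK cells (Ncr1 present, Cd3d, Cd3e and Cd3g absent) numbered 16 and 38, and gamma delta T cells (Cd3e and Trdc present, Cd8b1 absent) 100 and 48. These small classes and the matched reference were defined after values had been seen. Since the members were selected by measured genes, every contrast with CD8 cells is a description.

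The receptor genes that selected the cells were unevenly used. Klra7 was present in 74.4% of untreated and 81.5% of treated members, and Klra6 in 73.1% and 63.7%. Klra1 was present in 38.8% and 38.7%, Klrb1c in 44.6% and 29.8%, and Klra9 in 21.9% and 21%. Klra7 and Klra6 were thus the usual pair: 128 untreated members (52.9%) and 61 treated members (49.2%) had both. Among CD8 cells, Klra7 was present in 5.69% and 2.60% and Klrb1c in 1.30% and 0.624%. With every cell thinned to 2000 UMIs, which left out 1 untreated and 4 treated members, Klra7 was present in 54.8% and 56.7% of members and Klrb1c in 24.1% and 11.7%. Thinned shares in CD8 cells were 1.86% and 0.969% for Klra7 and 0.355% and 0.247% for Klrb1c.

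Most members sat at the threshold of the rule. Exactly 2 of the 5 receptor genes were present in 144 untreated and 86 treated members, 3 in 72 and 33, 4 in 22 and 5, and all 5 in 4 and 0. Just outside the rule lay 127 untreated and 136 treated cells that met the exclusions and had exactly 1 receptor gene. Fcer1g and Cd5, which the rule did not use, show how these cells compare. Fcer1g, an adaptor described below, was at 687 and 767 CPM in cells with exactly 2 receptor genes, at 603 and 526 in cells with exactly 1, and at 103 and 156 in cells with none. Cd5 was at 9.16 and 10.4 CPM with exactly 2, at 22.3 and 22.5 with exactly 1, and at 136 and 139 with none. Fcer1g thus lay within 2-fold on either side of the threshold, while Cd5 was more than 2-fold higher just outside it and higher again in cells without receptor genes. The Cd5 levels at the threshold and just outside it rest on few UMIs, and no interval for their gap is given here.

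Of the Ly49 genes outside the rule, Klra3, which encodes Ly49C, was at 104 CPM in untreated and 35.5 in treated members, against 11 and 41.5 in CD8 cells. Members thus stood above CD8 cells in the untreated library and close to them in the treated one. Klra8 (Ly49H), an activating receptor known for recognising cytomegalovirus, was at 2.34 and 1.42 CPM, from 1 cell in each library. Klra4 (Ly49D), another activating member, was at 8.78 CPM in untreated members, 13 of its 15 UMIs coming from 1 cell, and had 0 UMIs in treated members. Inhibitory and activating Ly49 genes are near copies of each other, so reads can be hard to assign. In the last 500 bases of each transcript, counted in windows of 50 bases against the GENCODE M21 transcripts, 44.8% of Klra9 windows and 27.5% of Klra7 windows occur in another gene, compared with 5.77% for Klra1, 3.10% for Klra6 and 0% for Klrb1c. Klra9 shares 29.3% of its windows with Klra3.

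Except for Klrc1, the lectin-like receptors outside the Ly49 family given here separated the classes in the untreated library and less so in the treated one. Cd160, an Ig-like receptor for HVEM and MHC class I, was at 498 CPM (interval 466 to 533) and 143 (117 to 174) in members and at 74.1 and 89.9 in CD8 cells. It was present in 81.4% of untreated and 46.0% of treated members. Klrk1 (NKG2D, an activating receptor for stress-induced ligands) was at 395 and 182 CPM, against 129 and 149 in CD8 cells. Klre1, whose product pairs with KLRI1 or KLRI2, was at 242 and 133 CPM against 74.4 and 114. Klrc2 (NKG2C) was at 150 and 108 CPM in members, while in CD8 cells it was 33.4 untreated and 174 treated. Its inhibitory relative Klrc1 (NKG2A) was at 90.1 and 63.9 CPM in members and at 108 and 295 in CD8 cells. Klrd1 (CD94), the partner of both, was present in 93.4% and 97.6% of members, at 737 and 899 CPM, against 368 and 913 in CD8 cells. In the treated library, then, CD8 cells had reached or passed the members in Klrd1 and Klrc2, while Klrc1 was higher in CD8 cells of both libraries.

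Among signalling adaptors, Fcer1g and Tyrobp set the members apart from matched CD8 cells. Fcer1g, the common gamma chain of Fc receptors that also couples some NK receptors to kinases, was at 710 CPM (670 to 751) and 717 (656 to 782) in members. Against matched CD8 cells, at 70.7 and 27.8 CPM, this was 10.0-fold and 25.8-fold higher. Fcer1g was present in 90.9% and 87.9% of members. After thinning it was present in 66.0% and 67.5% of members and in 13.2% and 4.54% of all CD8 cells. Tyrobp (DAP12), the adaptor of activating Ly49 receptors, was at 221 and 268 CPM in members, below the 2080 and 1850 of NK cells and above the 57.6 and 21.6 of matched CD8 cells. Both genes are also macrophage genes, and in all CD8 cells of the untreated library they stood at 461 and 280 CPM. Hcst (DAP10), the adaptor of NKG2D, was at 559 and 775 CPM, against 352 and 780 in CD8 cells. Of 15 adaptors and proximal kinases, 4 were at least 2-fold higher (Sh2d1b1, Fcer1g, Tyrobp and Plcg2) and 0 lower than in matched CD8 cells of the untreated library, where 5.38% of all genes compared were that far higher and 7.37% lower. In the treated library, 4 of 14 were higher and 2 lower, where 8.29% and 10.2% of all genes were. The list medians were 0.06 and -0.13 log2 units.

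**Figure D1:**
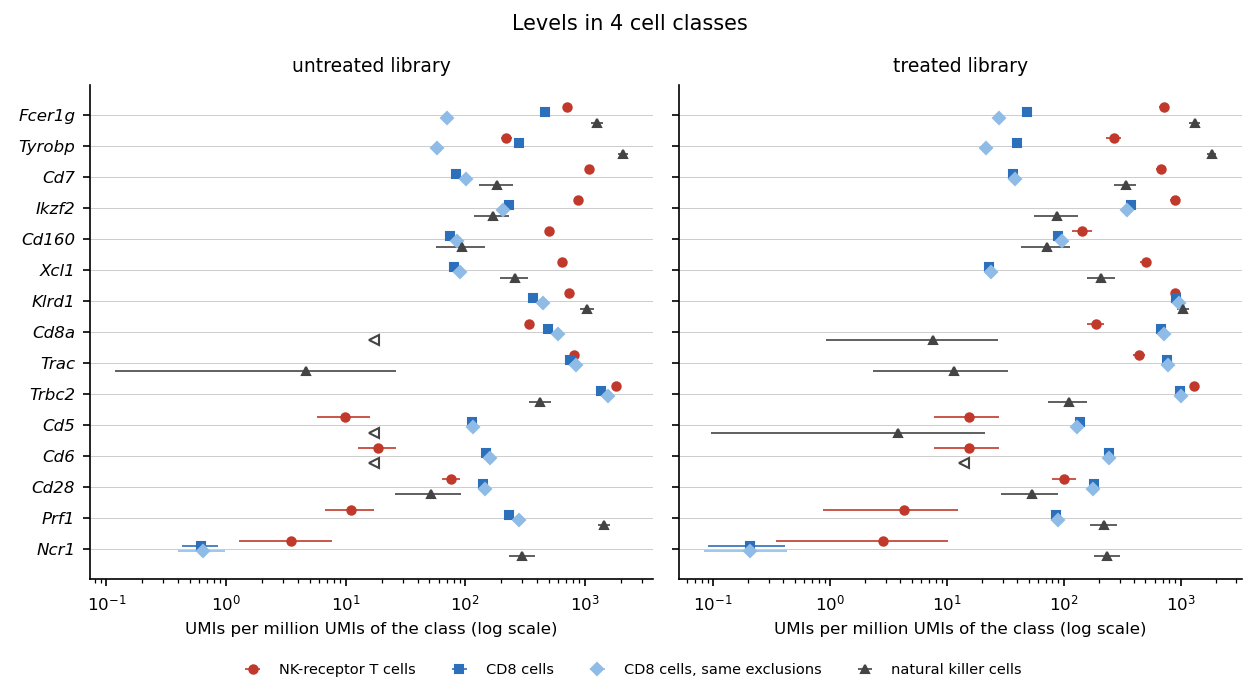
Levels of 15 genes (vertical axis) in CPM (horizontal axis, log scale) for NK-receptor T cells, CD8 cells, CD8 cells with the same exclusions and NK cells, with the untreated library on the left and the treated on the right; bars are exact 95% Poisson intervals and open triangles mark the upper bound where the count was 0. Members lie above both CD8 references in Cd7, Ikzf2 and Xcl1 and far below them in Cd5, Cd6 and Prf1, while Trac separates them from NK cells.

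The T cell label was met by the receptor complex. Trac, the constant region of the alpha chain, was at 814 and 440 CPM and present in 95.5% and 83.9% of members, against 4.71 and 11.4 CPM in NK cells. Trbc2, a constant region of the beta chain, was at 1829 and 1290 CPM, Cd3d at 1015 and 812, and Cd3g at 957 and 659. These levels were within 2-fold of those in CD8 cells in both libraries, except for Cd3g in the treated library, where CD8 cells stood at 1464 CPM. Lck, the kinase that starts T cell receptor signalling, was at 425 and 274 CPM in members and at 355 and 298 in CD8 cells. Lat, a scaffold of the same pathway, was at 163 and 116 CPM against 276 and 256. Gamma chain transcripts were also present, although Trdc was 0 by the rule. Tcrg-C1 was found in 14.0% and 8.87% of members and in 2.30% and 0.302% of CD8 cells. Tcrg-C2 was at 123 and 41.2 CPM in members and at 21 and 41.2 in CD8 cells, and Tcrg-C4 at 61.4 and 36.9 CPM against 3.18 and 1.35. Summed over 5 gamma delta genes other than Trdc, members had 228 and 106 CPM. Gamma delta T cells had 126 and 462 CPM, and CD8 cells 29.3 and 51.6. How many members are gamma delta T cells with a missed Trdc transcript was not tested.

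Surface molecules that conventional T cells carry were low. Cd5, an inhibitor of T cell receptor signalling whose level tracks receptor engagement in the thymus, was at 9.95 CPM (5.79 to 15.9) and 15.6 (7.79 to 27.9) in members, against 114 and 138 in CD8 cells. That is a log2 difference of -3.51 and -3.14. Its relative Cd6 was at 18.7 and 15.6 CPM against 149 and 245. Cd28, the main costimulatory receptor, was at 76.6 and 101 CPM against 142 and 181, a gap of less than 2-fold. Cd7, an Ig-like protein of T and NK cells, went the other way. It was at 1092 and 680 CPM in members and at 83.4 and 36.7 in CD8 cells, log2 ratios of 3.71 and 4.21. NK cells had 184 and 338 CPM of Cd7, so the members exceeded them too.

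Cd8a was common among cells that lack Cd8b1 by the rule. It was present in 165 of 242 untreated members (68.2%, interval 61.9 to 74.0) and in 67 of 124 treated members (54.0%, 44.9 to 63.0), at 342 and 187 CPM. CD8 cells had 491 and 682 CPM, and NK cells 0 UMIs and 7.60 CPM. Thinned to equal depth, Cd8a was found in 44.8% and 31.7% of members and in 57.8% and 69.4% of CD8 cells. A missed Cd8b1 transcript could place a conventional CD8 cell in the class, so the distribution of Cd8b1 was examined without its condition. Among cells with at least 2 receptor genes that met the other exclusions, Cd8b1 was 0 in 242 of 362 untreated cells (66.9%) and 124 of 165 treated cells (75.2%), was 1 UMI in 26 and 15, was 2 UMIs in 18 and 3, and reached 3 or more in 76 and 23. Cells with none of the 5 receptor genes that met the same conditions had 0 UMIs of Cd8b1 in 22.3% of 4178 and 10.6% of 4821 cells. Zero was therefore the commonest value in receptor-positive cells. Of the single values from 1 to 9 UMIs, 1 UMI was the commonest in both libraries. A further 36 untreated and 2 treated cells had 10 or more. How many members are conventional CD8 cells with a missed Cd8b1 transcript was not tested.

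**Figure D2:**
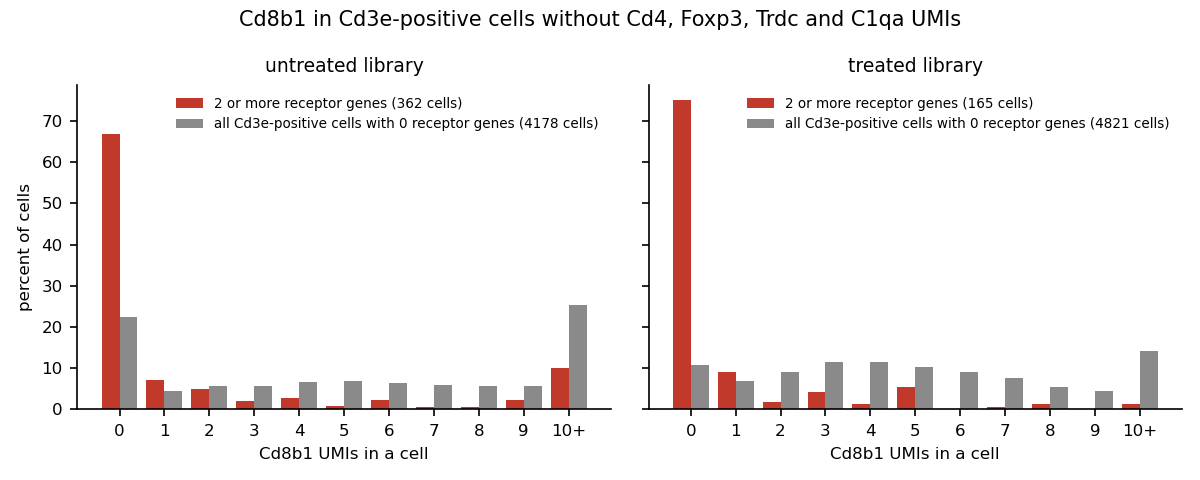
Percent of cells (vertical axis) by the number of Cd8b1 UMIs in a cell (horizontal axis) among Cd3e-positive cells without Cd4, Foxp3, Trdc and C1qa, in the untreated (left) and treated (right) library, for cells with 2 or more receptor genes and cells with none. The receptor-positive cells pile up at 0 (66.9% and 75.2%), where the receptor-negative cells have 22.3% and 10.6%.

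The receptor-positive cells that did carry Cd8b1 (CD8 cells with at least 2 of the 5 receptor genes, 183 untreated and 46 treated) differed from the members in several of these genes. Cd7 was at 216 and 262 CPM in them, Ikzf2 at 342 and 550, Cd5 at 78.8 and 87.4, and Xcl1 at 187 and 378. Each of these values lay between those of the members and of all CD8 cells. Fcer1g in them was 1020 CPM untreated, above the members, and 311 treated, below them. Part of this group has C1qa, since it was not subject to the exclusions.

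Zbtb16 and Ncr1, defining genes of invariant NKT and NK cells, were at or near 0 in members. Zbtb16 had 0 UMIs in untreated members, which allows up to 3 UMIs in 1709335, and 2 UMIs in treated members. Trbv13-2, a beta segment common in invariant NKT cells, had 0 UMIs in members of either library, and the alpha segment Trav11 was not analysed here. The other genes of that list, Slamf6, Cd1d1 and Sh2d1a, are also found in other T cells, and the whole list had a UMI in 47.9% and 37.1% of members and in 69.9% and 49.1% of CD8 cells. Of 4 genes of the list compared with CD8 cells, 0 were at least 2-fold apart in the untreated library. There, 5.2% of all genes compared were that far higher and 10.8% lower. Zbtb16, with 0 UMIs in untreated members, stood at its bound and could not have been called lower. In the treated library 2 were higher and 0 lower, where 8.13% and 10.3% of all genes were. The 2 were Slamf6 at 35.5 against 12.7 CPM and Zbtb16 from 2 UMIs. Il17a, the cytokine of type 17 cells, was also at 0 in members and had no UMI anywhere in the untreated library. Ncr1, which encodes the NK receptor NKp46, was found in 1 member of each library (3.51 and 2.84 CPM). In NK cells it stood at 301 and 236 CPM, but these cells were defined by having an Ncr1 UMI. The list of 16 NK cell genes summed to 1332 and 1228 CPM in members, 4862 and 5107 in NK cells and 1088 and 327 in CD8 cells. Fcer1g and Tyrobp made up most of this sum in members of both libraries. They also did so in untreated CD8 cells, part of which had C1qa. The sums in matched CD8 cells are not given here. Of that list, 3 genes (S1pr5, Khdc1a and Cma1) were at 0 in untreated members and 5 in treated members, where Klra4 and Klri2 joined them. Cd3e and NK receptors were required by the rule, and no subset of innate-like T cells was named from these genes.

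Transcription factors followed a mixed pattern. Ikzf2 (Helios), known from regulatory and innate-like T cells, was present in 94.2% and 95.2% of members at 871 and 887 CPM, against 206 and 349 in matched CD8 cells. Id3, an inhibitor of E proteins, was at 153 and 101 CPM against 45.0 and 19.2 in CD8 cells, while its relative Id2 was lower in members, at 294 and 153 against 618 and 631. Hes1, a Notch target, was at 42.1 and 99.4 CPM in members and at 10.3 and 5.51 in CD8 cells, but it was found in only 9.92% and 23.4% of members. Eomes and Tbx21, the T-box factors of cytotoxic lymphocytes, were near CD8 levels in the untreated library, at 57.3 against 43.7 and 55.0 against 36.4 CPM. Prdm1 (Blimp-1), a factor of effector cells, had 1 UMI in each library's members and stood at 18.3 and 15.9 CPM in CD8 cells. Tox, linked to chronic stimulation, was at 54.4 and 56.8 CPM in members and at 68.5 and 219 in CD8 cells. Of 19 factors compared with CD8 cells, 4 were at least 2-fold higher and 5 lower in the untreated library and 4 and 7 in the treated library, with median log2 ratios of 0.00 and -0.73. Of all genes compared, 5.2% were at least 2-fold higher and 10.8% lower in the untreated library, and 8.13% and 10.3% in the treated library.

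By the ranking over all genes, the 12 genes that stood highest in members over CD8 cells in both libraries were Cd7, Xcl1, Hes1, Ly6c2 and 8 less familiar genes. Ly6c2, an antigen of memory-phenotype CD8 T cells and monocytes, was at 1977 and 1896 CPM in members against 497 and 387. Rbpms, an RNA-binding protein, was at 56.7 and 105 CPM against 4.40 and 2.29. Atp1b1, a sodium pump subunit, was at 87.8 and 162 CPM against 23.4 and 11.6. Klhdc2, a substrate receptor of a ubiquitin ligase, was at 207 and 206 CPM against 60.3 and 42.6. Cited4, Clnk, Qrfp, Emid1 and Kifc3 were also at least 2-fold higher in both libraries, each under 50 CPM. Clnk encodes an adaptor of immune receptor signalling and was at 12.9 and 8.52 CPM against 0.842 and 0.572.

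The cytotoxic genes did not form 1 block. Gzmb was at 644 CPM in untreated members, close to the 573 of CD8 cells, and at 160 in treated members against 337. Prf1, the pore-forming protein that granzymes need to enter a target cell, was at 11.1 (6.69 to 17.4) and 4.26 CPM (0.878 to 12.4) in members. CD8 cells had 232 and 86.3 CPM and NK cells 1450 and 220. The log2 ratios of Prf1 were -4.38 and -4.34. In the untreated library members thus had Gzmb near the level of CD8 cells beside a far lower level of Prf1, while in the treated library both genes were at least 2-fold lower. Gzmf had 0 UMIs in untreated members against 403 CPM in CD8 cells, lower by at least 7.84 log2 units. Gzme and Gzmk had 0 UMIs in members of both libraries, against 94.4 and 52.1 CPM and 22.5 and 60.7 CPM in CD8 cells. Gzma was carried largely by 1 cell per library, with 37 of 72 and 19 of 20 UMIs. Ctsw, a cathepsin of cytotoxic lymphocytes, was at 536 and 417 CPM against 249 and 352. Of 19 cytotoxic genes, 2 were at least 2-fold higher and 8 lower than in CD8 cells in the untreated library (5.2% and 10.8% of all genes), and 0 and 12 in the treated library (8.13% and 10.3%).

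Ccl5, Xcl1 and Ltb were the genes of the chemokine and cytokine list with the most transcripts in members. Ccl5, which attracts T cells and monocytes, was at 4302 and 5143 CPM and present in 98.8% and 99.2% of members, against 1340 and 3060 CPM in CD8 cells. Xcl1, the ligand of XCR1 on conventional type 1 dendritic cells, was at 649 CPM (612 to 689) and 503 (452 to 558), against 80.7 and 22.9. NK cells, the usual source named for Xcl1, had 259 and 209 CPM. Ccl3 and Ccl4 were lower in members than in all CD8 cells, part of which had C1qa. Their levels in matched CD8 cells are not given here. Ccl3 was at 16.4 and 24.1 CPM against 155 and 50.6, and Ccl4 at 40.4 and 46.8 against 323 and 154, with 36 of the 69 untreated Ccl4 UMIs in 1 cell. Ifng was at 41.0 and 11.4 CPM in members and at 91.1 and 141 in CD8 cells. Ltb, a lymphotoxin subunit, was at 815 and 477 CPM against 520 and 421. Il2rb, the chain shared by the IL-2 and IL-15 receptors, was at 570 and 798 CPM against 337 and 925.

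Several inhibitory receptors were lower in members than in CD8 cells. Pdcd1 (PD-1) was at 28.7 and 11.4 CPM against 197 and 336, Lag3 at 22.2 and 5.68 against 147 and 232, and Ctla4 at 17.6 and 17 against 181 and 262. Tnfrsf4 (OX40), a costimulatory receptor of activated T cells, was at 8.78 and 4.26 CPM against 233 and 204. Cd160, also on this list, was the exception that stood higher in untreated members. Of 10 inhibitory receptors, 1 was at least 2-fold higher and 5 lower in the untreated library, and 0 and 5 in the treated library, with medians of -1.37 and -1.95 log2 units. The medians of all genes compared were -0.02 and 0.00. Among all genes, 5.2% were that far higher and 10.8% lower in the untreated library, and 8.13% and 10.3% in the treated library.

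Genes of recirculating and resting T cells gave different pictures in the 2 libraries. In the untreated library members and CD8 cells were close: Tcf7, a factor of naive and memory T cells, was at 194 against 148 CPM, S1pr1, the exit receptor of lymphoid tissue, at 53.2 against 62.3, and Klf2, a factor that drives S1pr1, at 618 against 591. In the treated library members stood above CD8 cells in each of these genes. Tcf7 was at 238 against 39.7 CPM, S1pr1 at 115 against 25.7 and Klf2 at 172 against 65.4. Of 13 naive and memory genes, 1 was at least 2-fold higher and 2 lower than in CD8 cells in the untreated library, near the 5.2% and 10.8% of all genes, and 8 and 3 in the treated library, where 8.13% and 10.3% of all genes were. Ccr7 was among the exceptions, at 28.1 and 4.26 CPM in members against 279 and 85.8 in CD8 cells. Bcl2, which protects resting lymphocytes, was at 450 and 271 CPM against 194 and 78.9.

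Members also differed among themselves. Those with a Klrb1c UMI (108 untreated, 37 treated) had Tyrobp at 329 CPM (290 to 371) and 417 (333 to 515), while those without (134 and 87) had 129 (107 to 155) and 207 (169 to 251). Klre1 was at 324 and 218 CPM with Klrb1c and at 171 and 98.4 without, and Gzmb at 816 and 218 with and 497 and 137 without. Members with a Cd8a UMI (165 and 67) had Gzmb at 752 CPM (704 to 801) and 212, and those without (77 and 57) at 344 (292 to 403) and 84.5. Tcf7 was at 185 and 186 CPM with Cd8a and at 217 and 317 without. Untreated members with a Cd8a UMI were deeper, with a median of 6322 UMIs against 5198 in those without, and the part of depth in these differences was not tested. Cells with a UMI of the cycling genes Mki67 or Top2a made up 25.2% of untreated members (19.9 to 31.2) and 10.5% of treated members (5.70 to 17.3), compared with 30.0% and 23.8% of CD8 cells. Untreated members with such a UMI had a median of 9283 UMIs, against 5478 in the others.

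Between libraries, 6683 genes with at least 20 UMIs in members of 1 library could be compared, and 11.8% of them were at least 2-fold higher and 15.3% at least 2-fold lower in treated members. In CD8 cells, compared over 12958 genes, the shares were 13.7% and 14.2%. The median log2 ratio over all genes was -0.07 in members and -0.01 in CD8 cells. Fewer cells of a kind and less RNA per cell were not separated by these ratios, which are relative to the total of the class.

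Factors induced by antigen receptor and cyclic AMP signals were higher in treated members. The nuclear receptor Nr4a3 was at 43.9 CPM (34.5 to 55.0) in untreated and 480 (430 to 534) in treated members, which is 10.9-fold, and it was present in 21.1% and 82.3% of them. Crem, a cyclic AMP response factor, went from 79.0 to 697 CPM, Fosl2, an AP-1 subunit, from 123 to 677, Egr1 from 30.4 to 204 and Nr4a2 from 201 to 808. Of 15 such factors, 7 were at least 2-fold higher and 0 lower, with a median of 0.75 log2 units. The shares over all genes were 11.8% and 15.3%. Fos and Jun were not among them, with log2 ratios of -0.11 and -0.74. The log2 ratios in CD8 cells were 3.58 for Nr4a3, 3.08 for Crem and 2.67 for Fosl2, where members had 3.45, 3.14 and 2.46.

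The genes with the highest ratios by the ranking were otherwise of mixed function. Irs2, a substrate of insulin and cytokine receptors, was at 14.6 CPM untreated and 169 treated, and Jmy, an actin nucleator, at 14.0 and 160. Klhl21 was at 3.51 and 62.5 CPM, Rab43 at 3.51 and 49.7 and Zc3hav1l at 2.93 and 42.6. Abca1, a cholesterol exporter, was at 4.68 and 69.6 CPM in members, giving 3.89 (2.80 to 5.18) on the log2 scale, and at 16.3 and 30.4 CPM in CD8 cells, a ratio of 0.89. Scd2, a fatty acid desaturase, was at 14.6 and 119 CPM. In untreated members, Klhl21 and Abca1 were present in 2.48% and 3.31% of cells, and Irs2 and Jmy in 8.26% and 9.09%. A ranking by the ratio of treated over untreated levels favours genes that are low in untreated members. Their low untreated levels are therefore no separate result.

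Output genes of the RAS, MEK and ERK pathway, which the drugs act on, did not move in 1 direction. Of 9 compared, 3 were at least 2-fold higher (Egr1, Spred2 and Dusp5) and 2 lower (Ccnd1 and Myc), where 11.8% and 15.3% of all genes were. Dusp5, a nuclear ERK phosphatase, was at 130 and 325 CPM, and Spry2, a feedback inhibitor, at 77.2 and 132. Dusp6, a cytoplasmic ERK phosphatase, was at 18.1 and 11.4 CPM, or -0.68 in log2 units, against -0.71 in CD8 cells. Myc was at 56.7 and 18.5 CPM, a ratio of -1.62 against -2.39. Of the 42 Ccnd1 UMIs in untreated members, 36 lay in 1 cell.

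Cell division genes were lower in treated members. All 11 G2M and mitosis genes compared were at least 2-fold lower, with a median of -3.26 log2 units in which 5 genes without UMIs in treated members stand at their bound. Top2a was at 145 and 25.6 CPM, and Mki67 at 54.4 and 5.68, the latter from 4 UMIs in 1 treated cell. Ube2c had 157 UMIs in untreated and 0 in treated members, lower by at least 4.43 log2 units, and Birc5 had 132 and 0. In CD8 cells, Top2a had a log2 ratio of -0.99 and Mki67 of -0.48, against -2.51 and -3.26 in members. Of 12 S phase genes, 7 were at least 2-fold lower and 0 higher in treated members, with a median of -1.36. Over all genes, 15.3% were that far lower and 11.8% higher.

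Interferon-stimulated genes were also lower in treated members, 9 of 12 by at least 2-fold and 0 higher, with a median of -1.11. Ifit3 was at 143 and 17 CPM, Isg15 at 326 and 152 and Irf7 at 246 and 102. CD8 cells had a median of -1.14 over the same 12 genes. Against CD8 cells, 7 of the 12 were at least 2-fold higher and 0 lower in members of the untreated library (median 1.10, with 5.2% of all genes higher), and 5 and 0 in the treated library (median 0.77, with 8.13% of all genes higher). The heat shock genes Hspa1a and Hspa1b, which tissue dissociation can induce, were at 435 and 59.6 and at 376 and 53.9 CPM in members. Of 8 genes on that list, 2 were at least 2-fold lower. Over all genes, 15.3% were that far lower in treated members and 11.8% higher.

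**Figure D3:**
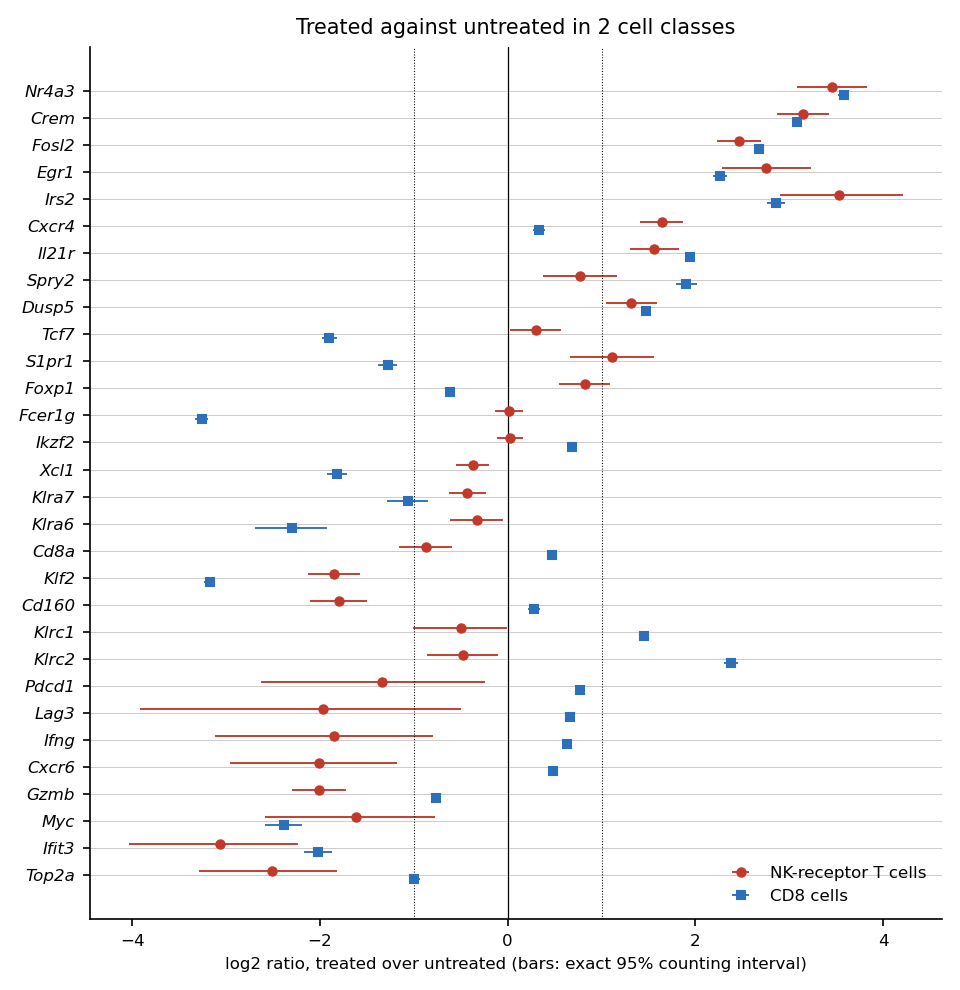
The log2 ratio of treated over untreated CPM (horizontal axis, bars are exact 95% counting intervals, dotted lines at 2-fold) for 30 genes in NK-receptor T cells and in CD8 cells. Nr4a3, Crem and Fosl2 lie between 2.46 and 3.58 in both classes, while members lie to the right of CD8 cells in Tcf7, S1pr1 and Fcer1g and to the left in Klrc1, Klrc2, Pdcd1, Lag3, Ifng and Cxcr6.

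Genes that set the class apart from CD8 cells did not move together between libraries. Fcer1g had a log2 ratio of 0.01 (-0.14 to 0.17) between libraries, Ikzf2 of 0.03 (-0.11 to 0.16) and Ly6c2 of -0.06. Cd7 had a ratio of -0.68 and Cd160, one of the markers of the class, of -1.80 (-2.11 to -1.5), against 0.28 for Cd160 in CD8 cells. The receptor genes of the rule had ratios of -0.43 (Klra7), -0.33 (Klra6), -0.45 (Klra1) and -0.31 (Klra9), and of -0.92 for Klrb1c. Every member was chosen for having some of these 5 genes, so their ratios are no measure of stability. Of 14 other NK receptors, 5 were at least 2-fold lower (Slamf7, Cd160, Klrb1f, Klrk1 and Crtam) and 0 higher, where 15.3% and 11.8% of all genes were. The other 9 lay within 2-fold, among them Klrd1 at 737 and 899 CPM. Trac and Cd8a had ratios of -0.89 and -0.87 in members and of 0.02 and 0.47 in CD8 cells, the latter being 342 and 187 CPM in members.

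Of 12 cytotoxic genes, 4 were at least 2-fold lower in treated members (Gzmb, Gzmc, Cst7 and Serpinb6b) and 0 higher. Of 8 cytokine and chemokine genes, 1 was lower (Ifng) and 0 higher. Over all genes, 15.3% were that far lower and 11.8% higher. Gzmb had a log2 ratio of -2.01 (-2.30 to -1.73), and its share of cells went from 51.7% to 20.2%, or from 38.2% to 11.7% after thinning. In CD8 cells the CPM ratio of Gzmb was -0.77, while its share of cells was 36.6% untreated and 57.0% treated. Ifng had a ratio of -1.85 in members and 0.64 in CD8 cells. The inhibitory receptors Pdcd1 and Lag3 had ratios of -1.34 and -1.97 in members and of 0.77 and 0.66 in CD8 cells, from 8 and 4 UMIs in treated members. Ccl5 lay within 2-fold, at 4302 and 5143 CPM.

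Genes of resting and recirculating cells had different ratios in the 2 classes. Tcf7 had a log2 ratio of 0.30 (0.02 to 0.57) in members and -1.90 in CD8 cells, Lef1 of 0.29 and -1.92, Il7r of 0.72 and -1.37, and S1pr1 of 1.11 (0.66 to 1.56) and -1.28. Foxp1, a factor of quiescent T cells, was at 159 and 280 CPM in members and at 161 and 105 in CD8 cells. Klf2 was lower in treated cells of both classes, at -1.85 and -3.17. Of the 13 naive and memory genes, 2 were at least 2-fold higher and 4 lower in treated members (median 0.29), against 0 and 9 in CD8 cells (median -1.37). The shares over all genes were 11.8% and 15.3% in members and 13.7% and 14.2% in CD8 cells. Whether the classes differ in these ratios could not be tested with 1 library per group.

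Over 15 homing genes, 3 were at least 2-fold higher and 3 lower in treated members, close to the 11.8% and 15.3% of all genes. Cxcr4, the receptor for CXCL12, was at 169 CPM (150 to 190) and 527 (474 to 583) in members and at 79.4 and 100 in CD8 cells, log2 ratios of 1.64 and 0.33. Cxcr6, found on tissue-resident T cells, was at 74.3 and 18.5 CPM in members and at 167 and 233 in CD8 cells. Il21r, the receptor of a cytokine from helper T cells, was at 132 and 389 CPM in members and at 115 and 443 in CD8 cells. Tgfbr2 and Il18r1 were the other cytokine receptors at least 2-fold higher in treated members, at 47.4 and 138 CPM and at 36.3 and 80.9 CPM.

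**Figure D4:**
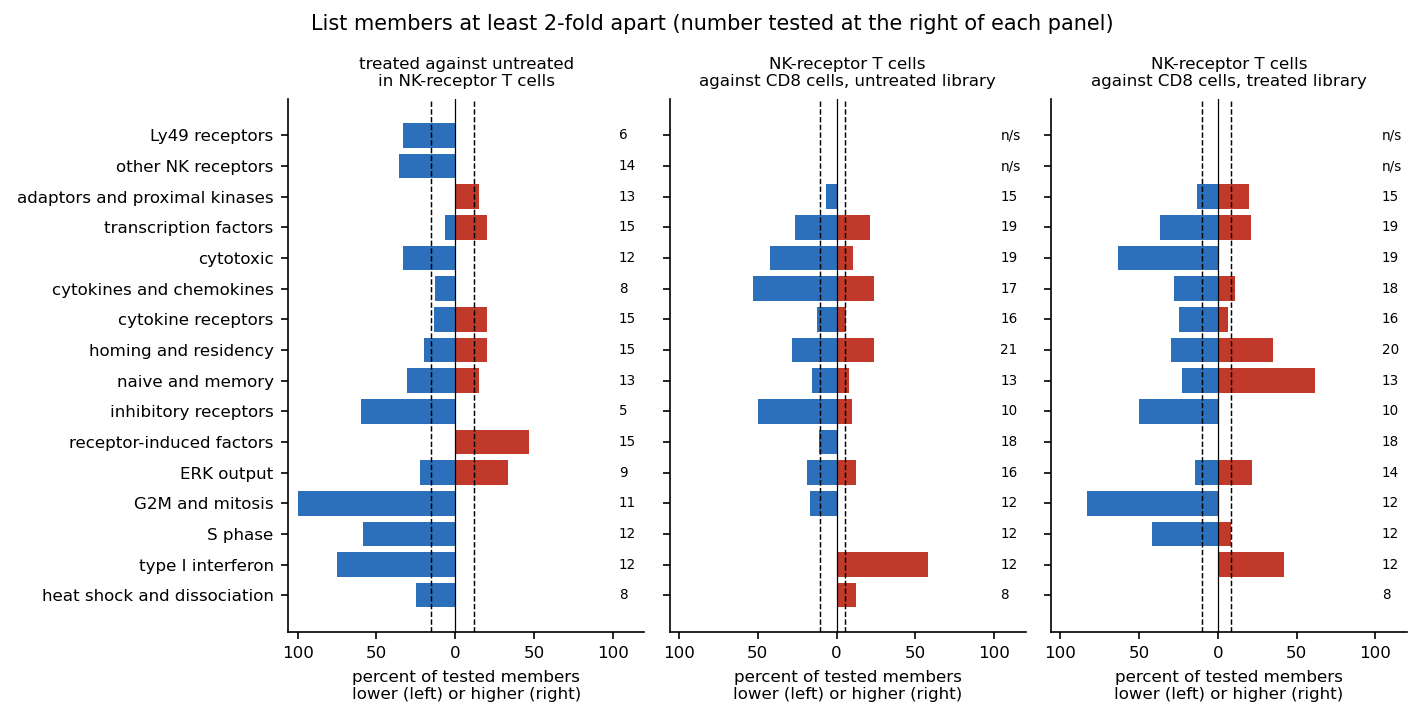
Percent of the compared genes of each list (horizontal axis) that were at least 2-fold higher (red, right) or lower (blue, left) in treated members against untreated members and in members against CD8 cells of each library; numbers at the right count the genes compared, dashed lines mark the share over all genes, and n/s marks 2 receptor lists not shown because they hold genes of the rule. In the left panel the G2M list lies wholly on the lower side (11 of 11) and receptor-induced factors only on the higher side (7 of 15).

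A few genes in the class came mainly from single cells, and some of these carried transcripts of other cell types. One untreated member with 45740 UMIs held 64 of 71 Sparc UMIs, 26 of 26 Col3a1 UMIs and 53 of 55 Mt2 UMIs, which are stromal or tumour transcripts in the case of the first pair. Another with 9050 UMIs held 1859 of 1863 Hbb-bs UMIs, the beta globin of red cells. One more with 31039 UMIs held 196 of 220 UMIs of the MHC class II gene H2-Aa. One treated member held 223 of 230 Lyz2 UMIs, a myeloid lysozyme. The list of macrophage genes other than C1qa summed to 64.9 and 407 CPM in members (253 of 287 treated UMIs in 1 cell) and to 2667 and 529 CPM in all CD8 cells, with Adgre1 at 0 in members of both libraries. Among the cells with the highest 5% of doublet scores in each library were 4 untreated (1.65%) and 1 treated member (0.806%).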

How the data were processed

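Transcripts of single cells were counted in 1 untreated and 1 treated library, both made with a version v3 droplet kit that reads 3′ ends, per the labels. Cell Ranger and Seurat are named, with no version, per the submitters' processing notes. These notes give the human build GRCh38, and since the symbols are those of mouse genes, coordinates are left out. The authors deposited 1 table of 15121 genes in 17390 cells in natural log units, ln(1 + x), where x is a cell's UMIs of the gene scaled to a cell total of 10000. Scaling each cell by its smallest value gave whole numbers for 38204229 of 38204229 values within 0.01 (100.0%), and these UMI counts were used for all values in the text. The plan had foreseen deposited counts, and mean deposited log values were added as an alternative. Libraries were told apart by the suffix of the cell names, matched to the sample numbers and cell numbers in the labels.

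The members and gene lists were chosen with earlier results of these data known. UMIs were summed per class and library and divided by the class total (CPM). A gene was compared if it had at least 20 UMIs in at least 1 of the groups, and was called at 2-fold. Ratios between libraries also required a UMI of the gene in both whole libraries, while contrasts with CD8 cells did not. In the untreated and treated library, 492 and 644 genes had 0 UMIs. Intervals are exact Poisson (levels), Clopper-Pearson (shares) and conditional binomial (ratios). The bound for a count of 0 is 3 UMIs over the group. UMIs of 3′ ends need no correction for gene length. PCR duplicates are removed by UMIs, but cells of 1 library are not independent samples. No test was run.

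Genes were named by rank: the 12 highest and 12 lowest between libraries and against CD8 cells by the interval bound nearest 1, the 6 that differed most from CD8 cells in each direction, and the 3 highest and lowest of each list, beside a set of genes always named. Named after their values were seen were Adgre1, Bcl2, Cd3d, Cd5, Cma1, Ctsw, Foxp1, Id3, Il7r, Irf7, Isg15, Khdc1a, Klri2, Lat, Lef1, Nr4a2, Prdm1, S1pr5, Slamf7 and Tcf7. A few of the genes so named are not reported here. Alternatives covered cell filters, doublets (Scrublet in scanpy), the number of receptors, the CD8 reference, denominators, the UMI minimum and the fold. The ratio step was checked on simulated counts. Software versions were matplotlib 3.10.9, scanpy 1.11.5, pandas 2.3.3, scipy 1.17.1 and numpy 2.4.6 under Python 3.11.15.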

Additional observations from a re-analysis of the deposited data

Results flagged for a closer look

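The following genes were at least 2-fold apart between treated and untreated NK-receptor T cells and at least 1.5-fold apart in the opposite direction in CD8 cells, with both counting intervals excluding 1. With 1 library per group the difference between the classes was not tested for any of them.

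Log2 ratios of treated over untreated CPM were 1.11 in members and -1.28 in CD8 cells for S1pr1, and 1.24 and -0.91 for Hes1. Plcg2, a phospholipase of immune receptor signalling, had 1.18 and -1.57. Ifng had -1.85 and 0.64, Pdcd1 -1.34 and 0.77, and Lag3 -1.97 and 0.66. The Ly49 gene Klra3 had -1.55 and 1.92, and the gamma chain constant gene Tcrg-C2 had -1.58 and 0.97.

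The other genes were carried by 1 cell each or are transcripts of other cell types. Lyz2 had 3.42 and -3.06, with 223 of 230 treated UMIs in 1 member. Wfdc17 had 5.02 and -1.09, with 39 of 40 treated UMIs in that cell. Apoe, a macrophage gene, had 1.92 and -1.34. Col3a1 had -1.84 (a bound, since treated members had 0 UMIs) and 3.63, Sparc -4.87 and 1.87 and Mt2 -3.50 and 1.05, with 26 of 26, 64 of 71 and 53 of 55 untreated UMIs in 1 member.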

How the results depend on the processing

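No paired analysis was possible because each group is 1 library, and no replicate could be left out. Under the alternatives, gene ratios stayed within their counting interval in 5262 cases and moved beyond it in 765. In 15 cases a ratio of at least 2-fold reversed its sign (mean deposited values were compared by sign alone). Sign changes of smaller ratios were not counted as reversed. The share of NK-receptor T cells in the untreated library (2.60%) became 1.05% with at least 3 receptor genes, 3.96% with at least 1, 1.16% with Klrb1c plus a Klra gene, 0.827% with Cd8a also at 0, 3.12% without cells holding macrophage or B cell UMIs, where both the class and the total change, and 1.18% with cells thinned to 2000 UMIs. The treated share (1.54%) became 0.470% with at least 3, 3.22% with at least 1, 0.458% with Klrb1c plus a Klra gene, 0.706% with Cd8a at 0 and 0.493% after thinning. It exceeded the untreated share under none of these settings.

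Between libraries, 790 genes were at least 2-fold higher and 1024 lower in treated members. The higher count was 425 with at least 3 receptor genes, 460 with Klrb1c plus a Klra gene, 425 with Cd8a at 0, 370 at 50 UMIs and 1596 at 1.5-fold. The lower count was 337 with Cd8a at 0, 554 at 50 UMIs and 1899 at 1.5-fold. Against CD8 cells, 669 genes were higher and 1388 lower in the untreated library. The higher count was 133 against CD8 cells with at least 2 receptor genes, 437 at 50 UMIs, 1400 at 1.5-fold, 341 without the top cell of each gene and 108 where at least 20 UMIs were expected in the members from the rate over both groups. The lower count was 823 without cells holding macrophage or B cell UMIs, 868 against matched CD8 cells, 2389 at 1.5-fold and 507 with 20 expected UMIs. In the treated library (998 and 1263), the higher count was 147 against CD8 cells with at least 2 receptor genes, 1836 at 1.5-fold, 525 without the top cell and 79 with 20 expected UMIs. The lower count was 70, 2508 and 371 under the first, second and last of these. Smaller groups of cells and stricter minimums leave fewer genes to compare.

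The treated over untreated log2 ratio of Lyz2 (3.42) reversed to -1.86 without the deepest 5% of cells, -1.90 with at least 3 receptor genes, -1.57 with Klrb1c plus a Klra gene, -2.10 with Cd8a at 0, -1.89 without cycling cells and -0.61 without its top cell, and its mean deposited value differed by -0.0128 natural log units. With at least 1 receptor gene, Cd74 reversed to 0.67, H2-Aa to 0.48, H2-Ab1 to 0.0732 and H2-Eb1 to 0.22. Against CD8 cells with at least 2 receptor genes, Ncr1 reversed to -1.33 in the untreated library and Klf2 to -0.20 in the treated library. Ifng in the untreated library had a difference of 0.00115 natural log units, and Myc in the treated library reversed to -0.33 with Klrb1c plus a Klra gene. The alternatives named in this paragraph that concern expected UMIs, the matched reference, top cells and mean deposited values were chosen after seeing the data, and the cause of these changes was not tested. Treated members summed to 704448 UMIs, and genes with fewer than 20 UMIs in both groups of a comparison were not compared.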
